A study of Mus musculus with 6 samples.

Results

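Immunoglobulin heavy chain variable (Ighv) genes were examined in lung RNA of adult mice by counting sequencing reads per gene. The members were chosen by name and by level: a symbol that starts with Ighv and at least 20 counts summed over the 6 libraries. Of 114 Ighv genes among the 41388 genes of the count table, 78 met the rule, 21 had 1 to 19 counts and 15 had 0 counts. Just inside the limit were Ighv1-63 with 20 counts, Ighv1-31 with 21 and Ighv1-72 with 22, and just outside were Ighv1-2 and Ighv1-34 with 18 each and Ighv8-6 with 13. WT libraries 1 to 3 came from wild type C57BL/6J mice and KO libraries 1 to 3 from mice of the strain B6.129S7-Zpbp2 tmZuk/Mmjax, which lack the start of Zpbp2, with its promoter, in every cell on a C57BL/6J background. Both genotypes were kept in the same colony under a 12 h light and 12 h dark cycle, and lungs were taken at ZT7, meaning 7 h into the light phase (Zeitgeber time). The age beyond adult and the sex of each of these mice were not given in the sources used here.

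Each B cell builds its antibody heavy chain gene by joining 1 V, 1 D and 1 J segment, and the chosen V segment codes for most of the part of the chain that touches antigen. A diverse B cell population therefore transcribes many Ighv genes, whereas the descendants of a single B cell share the same V segment, and antibody-secreting plasma cells carry far more of this RNA than resting B cells. In whole lung the RNA comes from resident and circulating B cells and from plasma cells, and fewer cells of a type cannot be told apart from less RNA per cell. The number after Ighv in a symbol names a family of V segments of similar sequence.

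The libraries held 59134950 to 71354388 counts in total, of which 1942 to 4539 fell on the 78 members, so shares of Ighv counts carry a counting error that is given as a 95% Wilson interval where a library is described alone. These intervals, and the limit that a count of 0 allows (3 counts), cover counting error only. Zpbp2 had 20, 15 and 7 counts in WT1 to WT3 and 1, 0 and 0 counts in KO1 to KO3, as the labels had it. B cell markers were present in every library (Cd79a at 34.4 to 41.5 counts per 1e6 counts of the scaled library, CPM), as was the plasma cell gene Mzb1 (6.97 to 10.9 CPM). Some libraries stood apart in other tissues' markers: the summed erythroid list was 2403 to 5515 CPM in WT and KO1 but 19003 and 19740 CPM in KO2 and KO3, and the squamous epithelium list was 4224 CPM for WT3 and 7916 CPM for KO1, with the other 4 at 3.61 to 5.08 CPM. KO2 and KO3 held 41.0 and 40.7 CPM of the hepatocyte list, and the other 4 at most 4.98 CPM. Other lists differed between the genotypes without overlap: adipocyte markers summed to 218 to 313 CPM in WT and 28.5 to 67.3 CPM in KO (1 of 5 called), cardiomyocyte markers to 1771 to 5126 and 781 to 963 CPM (0 of 4), and lung epithelial markers to 41935 to 45729 and 59543 to 69149 CPM (3 of 5). The part of these differences in the Ighv values was not tested. KO2 and KO3 differed little more than counting allows (the Ighv comparison is given with the pairs of libraries) and were counted as 1 sample by summing their counts, which gives n = 3 (WT) and n = 2 (KO).

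All 78 members lie on the minus strand of chromosome 12 and are annotated as V genes and none as a pseudogene (GENCODE M21, build GRCm38). The results turned on 4 segments, given here as the last 300 bases of their reference transcripts, all of it exon sequence, with capitals at the bases that differ from the Ighv segment closest to them in sequence. Ighv1-9 (chr12:114583569-114583868), the segment that filled the KO2 and KO3 libraries, has 26 such bases against Ighv1-63. Ighv3-6 (chr12:114288152-114288451), the leading segment of WT2, has 18 against Ighv3-1. Ighv6-3 (chr12:114391712-114392011), the leading segment of WT1, has 21 against Ighv6-6. Ighv14-4 (chr12:114176438-114176737), the member called between genotypes, has only 8 against Ighv14-1.
Ighv1-9: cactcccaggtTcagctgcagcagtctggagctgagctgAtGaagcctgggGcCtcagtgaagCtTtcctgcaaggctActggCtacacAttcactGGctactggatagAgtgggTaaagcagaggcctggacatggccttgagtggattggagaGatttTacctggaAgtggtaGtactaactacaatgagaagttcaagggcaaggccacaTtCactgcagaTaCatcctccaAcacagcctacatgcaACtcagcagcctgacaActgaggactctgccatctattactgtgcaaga
Ighv3-6: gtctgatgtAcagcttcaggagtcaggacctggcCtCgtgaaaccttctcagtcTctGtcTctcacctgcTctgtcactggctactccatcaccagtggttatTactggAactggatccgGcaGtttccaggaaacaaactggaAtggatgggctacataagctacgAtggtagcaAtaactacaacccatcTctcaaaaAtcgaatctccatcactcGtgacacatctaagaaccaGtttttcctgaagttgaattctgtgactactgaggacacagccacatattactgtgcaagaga
Ighv6-3: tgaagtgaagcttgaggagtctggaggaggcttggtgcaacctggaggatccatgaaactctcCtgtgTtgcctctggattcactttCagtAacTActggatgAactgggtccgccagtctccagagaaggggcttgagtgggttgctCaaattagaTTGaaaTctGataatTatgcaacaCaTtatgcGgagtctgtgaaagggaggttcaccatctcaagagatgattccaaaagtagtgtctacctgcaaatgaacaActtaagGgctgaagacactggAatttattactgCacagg
Ighv14-4: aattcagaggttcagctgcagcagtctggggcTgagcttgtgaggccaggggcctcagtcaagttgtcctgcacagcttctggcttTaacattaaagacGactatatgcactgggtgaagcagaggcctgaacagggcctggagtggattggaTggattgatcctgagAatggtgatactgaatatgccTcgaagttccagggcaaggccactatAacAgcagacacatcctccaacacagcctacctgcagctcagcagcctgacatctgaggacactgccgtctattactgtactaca
Of the 50-base windows of the whole segment, 99.3% in Ighv1-9, 96.7% in Ighv3-6, 86.0% in Ighv6-3 and 78.8% in Ighv14-4 occurred in no other Ighv segment of the annotation. At this window length the reference sequence of Ighv1-9 was thus nearly all distinct, whereas part of the reads of Ighv14-4 could have come from another segment. The windows describe the reference and not the reads, whose length was not given and which may carry somatic mutations. Wrong assignment of reads was not tested.

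Ighv usage was broad in 3 libraries and led by a single segment in the other 3. The effective number of genes, the inverse Simpson index of the shares, which equals the number of genes that would give the same concentration if all were used equally, was 28.4 in WT1, 30.3 in WT3 and 29.5 in KO1. It was 9.96 in WT2, 3.21 in KO2 and 3.04 in KO3. Between 74 and 78 members had at least 1 count in each library, which the choice of members by their summed counts largely fixes, and 56, 60 and 65 members in WT and 45, 49 and 48 in KO had at least 10. The most used 11 or 12 genes held 50% of the Ighv counts in WT1, WT3 and KO1. In WT2 it took 5 genes, and in KO2 and KO3 Ighv1-9 alone held more. Thinning every library to 1942 Ighv counts, the lowest total, left the values at 27.8, 10.2 and 29.2 in WT1 to WT3 and 29.5, 3.23 and 2.92 in KO1 to KO3. WT2, KO2 and KO3 were again far below the other 3 at equal depth.

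**Figure D1:**
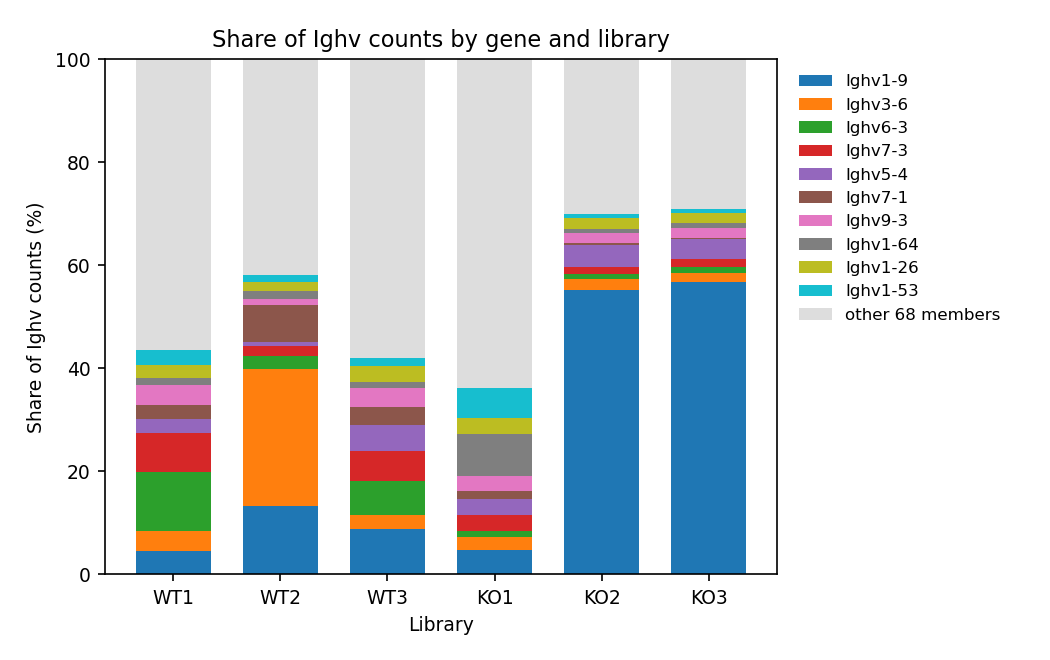
Share of Ighv counts (%, vertical axis) taken by each of the 10 members with the largest mean share (colours) and by the other 68 members together (grey) in each of the 6 libraries. Ighv1-9 takes 55.2% and 56.8% of KO2 and KO3 and 4.57% to 13.2% of the other libraries, and Ighv3-6 takes 26.8% of WT2.

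**Figure D2:**
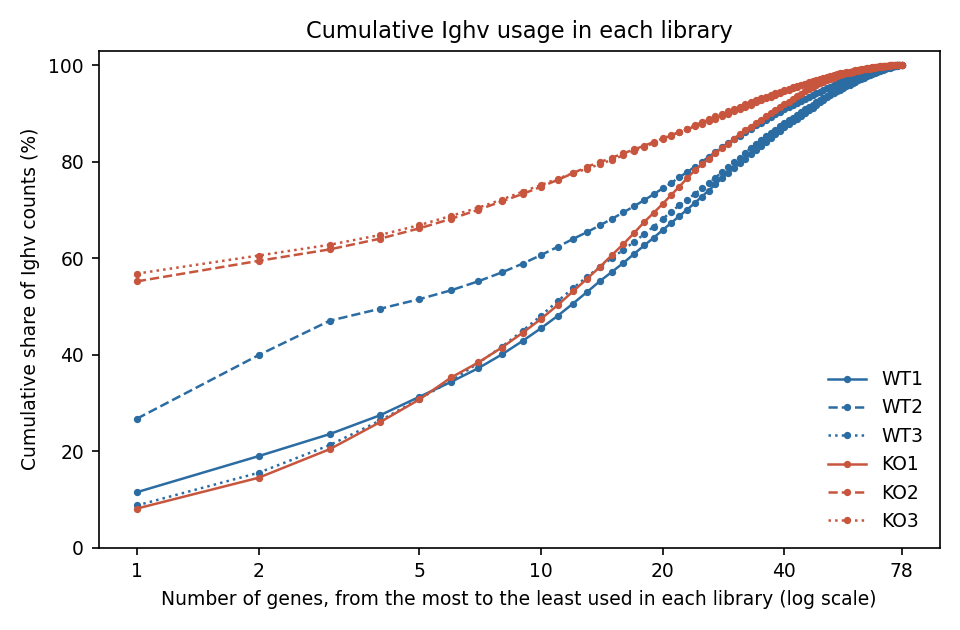
Cumulative share of Ighv counts (%) against the number of genes counted from the most used downwards (log scale), with a line for each library, WT in blue and KO in red. The lines of WT1, WT3 and KO1 run together at the left, WT2 lies above them, and KO2 and KO3 start above 50%.

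Counts of Ighv1-9 were 126, 539 and 322 in WT1 to WT3 and 91 in KO1, but 2506 and 2262 in KO2 and KO3. KO2 and KO3 reached levels of 40.4 and 38.7 CPM, against 1.72, 7.68 and 5.36 CPM in WT and 1.44 CPM in KO1. The KO libraries thus lay on both sides of the WT libraries, with KO1 the lowest of all 6. Its share of the Ighv counts was 55.2% (95% interval 53.8% to 56.7%) in KO2 and 56.8% (55.3% to 58.4%) in KO3. In the other libraries it was 4.57% (3.85% to 5.41%) in WT1, 13.2% (12.2% to 14.2%) in WT2, 8.79% (7.91% to 9.75%) in WT3 and 4.69% (3.83% to 5.72%) in KO1. By genotype the level was 4.92 ± 3.004 CPM in WT (SD, n = 3) and 20.5 ± 27.0 CPM in KO (SD, n = 2), and the edgeR quasi-likelihood test gave a log2 fold change of 2.08 (SE 1.29) with an adjusted p of 0.365. The difference did not pass the test, and its sign rested on KO2 and KO3: without them it was -1.77 on the log2 scale. With Ighv1-9 set aside, the effective number was 30.9 in KO2 and 32.7 in KO3, within the 27.5 to 32.9 of WT1, WT3 and KO1. With the leading segment of each library set aside instead, it was 35.7 in WT1, 32.9 in WT3 and 31.0 in KO1, so that KO2 lay just below these 3 and KO3 within them. The rest of the Ighv usage in KO2 and KO3 was therefore close in evenness to the low end of the broad libraries.

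The other leading segments differed from library to library within a genotype as well. Ighv3-6 had 105, 1096 and 97 counts in WT1 to WT3 and 48, 101 and 67 in KO1 to KO3. WT2 stood alone at 26.8% of its Ighv counts (25.4% to 28.1%), while in the other libraries the gene took 1.68% to 3.81%. Its log2 fold change was -2.51 (SE 1.29, edgeR adjusted p = 0.281), and without WT2 it was -0.50 (SE 0.36, edgeR adjusted p = 0.525). Ighv6-3 led WT1 with 11.5% (10.4% to 12.8%) and was the runner-up in WT3. Ighv1-64, a distal segment, led KO1 with 8.14% (7.001% to 9.44%), with 158 counts against 37, 58 and 42 in WT and 42 and 36 in KO2 and KO3. KO1 was also the highest library for Ighv1-53, with 115 counts against 78, 56 and 57 in WT and 35 and 33 in KO2 and KO3, and for Ighv1-55, with 124 against 36 to 69 elsewhere. Ighv5-4, of a family nearest the D segments, had 77, 31 and 187 counts in WT against 59, 193 and 149 in KO, so WT2 was the lowest library and WT3 and KO2 the highest. Ighv1-26 was the steadiest of the 10 most used segments, with 71, 75 and 115 counts in WT against 60, 97 and 81 in KO and shares of 1.83% to 3.14%. Ighv9-3 ranged from 51 counts in WT2 to 138 in WT3, and KO lay between them at 56, 90 and 77.

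The spread between WT libraries was wider than for other genes of similar level. Among members with 100 to 1000 counts in total, the highest of the WT libraries was a median of 2.67 times the lowest in CPM (n = 42), and 69.0% of them differed by more than 2-fold. Over all 3494 tested genes in that range the median was 1.41 and 15.7% differed by more than 2-fold. The largest ratios between the highest and lowest share over the 5 samples, among members with a mean share of at least 1%, were those of Ighv7-1, Ighv14-4, Ighv14-2, Ighv3-6 and Ighv1-9. The largest WT excursion of a member with few counts was Ighv3-5, chosen here after its values were seen, with 6, 2 and 62 counts in WT against 1, 0 and 1 in KO.

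Pairs of libraries were compared by a chi-square of the Ighv counts divided by its degrees of freedom, which is near 1 where only counting separates 2 libraries. For KO2 and KO3 it was 1.59 over 48 genes. For every other pair of the same genotype it was far larger: 26.4 for WT1 and WT2, 9.05 for WT1 and WT3, 27.2 for WT2 and WT3, 46.0 for KO1 and KO2 and 45.9 for KO1 and KO3. Leaving out Ighv1-9 kept KO2 and KO3 at 1.59 and gave 8.45 to 26.9 for the others. The shared usage, the sum over genes of the smaller of the shares in a pair, was 93.5% for KO2 and KO3 and 42.5% to 74.8% for the other same-genotype pairs. Of the 10 most used genes, 8 were common to KO2 and KO3. KO2 and KO3 were therefore kept as 1 sample, although the labels list them as separate samples. Whether they are 1 animal or library was not tested: their difference was above counting alone, with Ighv4-1 at 1.74% (1.40% to 2.16%) in KO2 and 0.929% (0.675% to 1.28%) in KO3, and if they are separate mice n is 3 for KO.

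**Figure D3:**
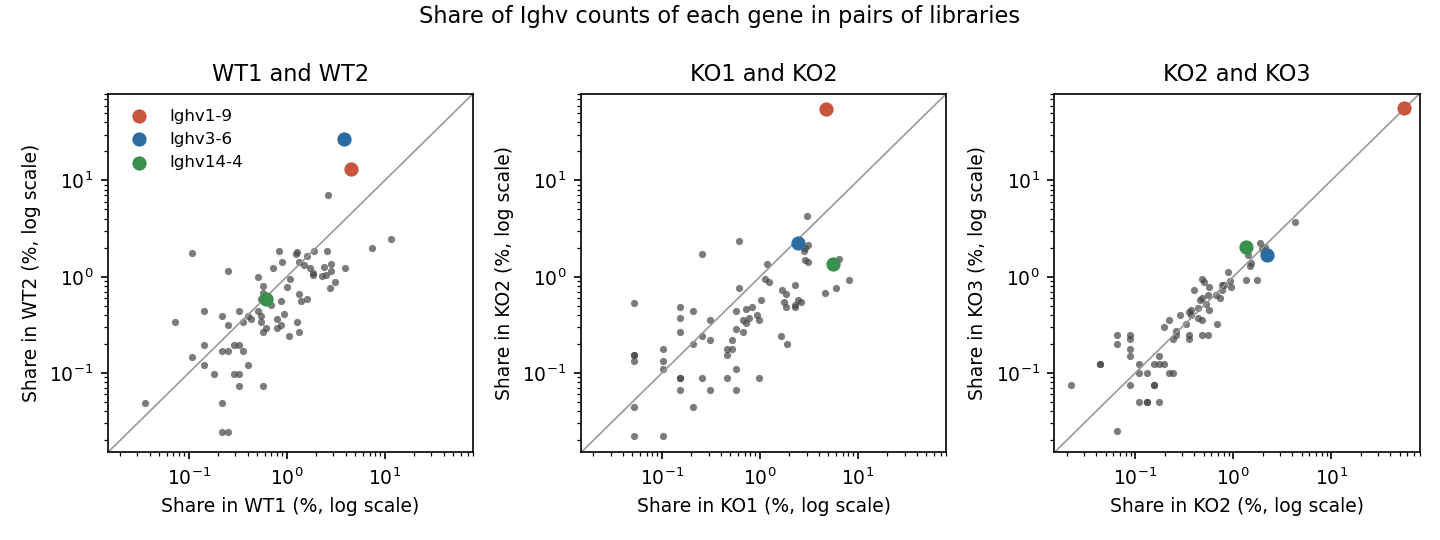
Share of Ighv counts (%) of each gene in a pair of libraries, on log axes, for WT1 and WT2, KO1 and KO2, and KO2 and KO3, with the line of equal shares. Points are genes with at least 1 count in both libraries (78, 73 and 74), and Ighv1-9, Ighv3-6 and Ighv14-4 are coloured. The points of KO2 and KO3 lie along the line, including Ighv1-9, whereas those of the other pairs scatter widely.

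The summed level of the 78 members did not separate the genotypes. It was 37.7, 58.3 and 61.0 CPM in WT1 to WT3 and 30.8, 73.2 and 68.2 CPM in KO1 to KO3, so that the lowest and the highest library were both KO. The means were 52.3 ± 12.8 CPM in WT (SD, n = 3) and 50.7 ± 28.2 CPM in KO (SD, n = 2). The means of the log2 levels differed by -0.13 (two-sided exact permutation test, p = 0.8). This design cannot give a p below 0.2. The effective number of genes was 22.9 ± 11.2 in WT and 16.3 ± 18.7 in KO, a difference of -6.56 (exact permutation p = 0.6, n = 3 and 2), and neither difference exceeded the spread between samples. The direction of the difference in effective number rested on Ighv1-9 in KO2 and KO3: it was 7.07 without Ighv1-9 (23.2 ± 12.5 and 30.2 ± 2.17) and 6.65 without KO2 and KO3. Without Ighv1-9, an alternative added after the data were seen, the summed level was 35.9, 50.7 and 55.7 CPM in WT and 29.3, 32.8 and 29.4 CPM in KO. All KO libraries were then below all WT libraries, by -0.63 between the means of the log2 levels (exact permutation p = 0.2, the smallest this design can give). Ighv1-9 was high in KO2 and KO3, so leaving it out lowered these libraries most, whereas WT2 kept its leading segment Ighv3-6 (15.6 CPM). The separation thus partly followed from this choice and is no support for a genotype difference. The summed level of 10 B cell markers was 329 to 397 CPM in WT and 292 to 303 CPM in KO, with 9 of the 10 markers lower in KO and none called. The plasma cell list went the other way, at 467 to 501 CPM in WT and 556 to 603 CPM in KO, with 7 of its 9 genes higher in KO and 1 called, Sdc1, which epithelial cells also express (edgeR adjusted p = 0.0487). Without Sdc1 the list was at 277, 298 and 292 CPM in WT and 289.7, 344 and 338 CPM in KO, and KO1 overlapped WT. Xbp1 made up most of that remainder, at 193 to 216 CPM over all libraries. The 2 genes that were lower, Irf4 (14.8 to 16.6 CPM in WT, 9.93 to 10.8 CPM in KO) and Tnfrsf13b, were lower in every KO library. The part of either list in the Ighv levels was not tested. Per 100 CPM of the B cell list, the Ighv level without Ighv1-9 was 9.06, 14.2 and 16.9 in WT and 10.04, 10.9 and 9.72 in KO, and the genotypes overlapped.

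Gene by gene, a single member, Ighv14-4, was called (adjusted p no higher than 0.05), that is 1 of the 64 that passed the filter on low counts (1.56%). Over all 18660 genes tested, 2.28% were called, so the members' share was near the background. Without adjustment, 15 members (23.4%) and 27.3% of all tested genes had a p no higher than 0.05. With KO2 and KO3 as separate samples, 5 of 56 members were called (8.93%) against 18.9% of all genes in that fit: Ighv14-4 as before, and Ighv6-3, Ighv7-1, Ighv5-16 and Ighv1-12, all lower in KO. Most fold changes were negative. Of the 64 tested members 49 were lower and 15 higher in KO, with a median log2 fold change of -0.55 against 0.02 over all tested genes. In 19 tested members (29.7%) every KO library lay below every WT library, against 20.8% of all tested genes. Only 2 (3.13%), Ighv14-4 and Ighv1-66, lay above in every KO library, against 20.01% of all tested genes. These members share libraries and cells, so they are not separate observations of a genotype effect.

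Ighv14-4 was the member called. Its counts were 17, 24 and 11 in WT1 to WT3 and 109, 62 and 81 in KO1 to KO3, and its level was 0.232, 0.342 and 0.183 CPM in WT and 1.73, 0.999 and 1.39 CPM in KO. The lowest KO library was above the highest WT library. The means were 0.252 ± 0.0813 CPM in WT (SD, n = 3) and 1.46 ± 0.378 CPM in KO (SD, n = 2), with a log2 fold change of 2.52 (SE 0.34) and an edgeR adjusted p of 0.0448. Its share of the Ighv counts was 0.300% to 0.616% in WT and reached 1.37% in KO2, 2.03% in KO3 and 5.61% in KO1. Per 1000 CPM of the B cell list it was 0.557 to 0.957 in WT and 3.33 to 5.92 in KO, again without overlap. The call was close to the threshold. The edgeR adjusted p was 0.173, 0.189 and 0.123 without WT1, WT2 and WT3, 0.0921 without KO1, 0.0508 without KO3 and 0.084 without both KO2 and KO3, while the log2 fold change stayed between 2.22 and 2.79. Without KO1, or without KO2 and KO3, a single KO sample remained, which was assumed to vary like the WT samples. The closest segment, Ighv14-1, matched 97.4% of its bases and had 6, 1 and 1 counts in WT against 6, 3 and 10 in KO. Ighv14-2, of the same family, had 24, 13 and 41 counts in WT against 89, 31 and 13 in KO. There the genotypes overlapped, and KO1 alone was high (log2 fold change 1.15, SE 0.76, edgeR adjusted p = 0.395). Ighv14-3 had 19, 21 and 16 counts in WT against 3, 12 and 11 in KO, so the family did not move as a block. Ighv1-66, the other member above WT in every KO library, had 16, 3 and 12 counts in WT against 14, 15 and 13 in KO, a difference no larger than the spread between WT libraries (log2 fold change 0.57, edgeR adjusted p = 0.624).

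Among tested members whose KO libraries all lay below WT, the 5 largest fold changes were those of Ighv5-15, Ighv7-1, Ighv2-9, Ighv6-3 and Ighv1-50, and none passed the edgeR test. Ighv5-15, Ighv2-9 and Ighv1-50 reached the limit of 20 counts only with their WT counts. Their falls therefore partly follow from the choice of members. DESeq2, an alternative that called 21.9% of all genes it tested, called Ighv6-3 (adjusted p = 7.87e-05), Ighv7-1 (0.00107), Ighv5-15 (0.00185) and Ighv1-50 (0.0313). The calls of Ighv5-15 and Ighv1-50 carry the same limit from the choice of members. Ighv6-3 had 318, 102 and 248 counts in WT against 24, 40 and 45 in KO, and its level was 4.34, 1.45 and 4.13 CPM in WT and 0.381, 0.645 and 0.771 CPM in KO. Every KO library was below every WT library, with a log2 fold change of -2.59 (SE 0.61, edgeR adjusted p = 0.0796). Ighv7-1 had 73, 292 and 123 counts in WT against 32, 11 and 9 in KO. The gap was wide in KO2 and KO3 and narrower in KO1 (log2 fold change -2.86, SE 0.83, edgeR adjusted p = 0.110). Leaving out single libraries moved the log2 fold change of Ighv7-1 between -3.84 (without KO1) and -2.20 (without WT2). Ighv7-3, the other segment of that family, had 206, 81 and 210 counts in WT against 60, 65 and 67 in KO, with KO even across its libraries and just below WT2 (log2 fold change -1.27, SE 0.50, edgeR adjusted p = 0.184). Ighv2-9 had 29, 10 and 19 counts in WT against 1, 2 and 5 in KO (log2 fold change -2.74, SE 0.72, edgeR adjusted p = 0.0921). Ighv1-50 ranged from 11 to 86 counts in WT and from 3 to 9 in KO, and WT3 nearly met KO1 (log2 fold change -2.50, SE 0.88, edgeR adjusted p = 0.155). Over single libraries left out, its log2 fold change ranged from -2.95 (without WT3) to -1.655 (without WT1). Ighv5-15 was at 0 counts in all KO libraries and had 3, 73 and 14 in WT, which put KO at least 8.52-fold lower than the WT mean when 3 counts per KO library are taken as the limit (edgeR adjusted p = 0.157). That bound rested on WT2, and without it KO was at least 2.67-fold lower. All counts of Ighv5-15 were in WT, so the bound describes a member that was chosen through WT alone. Ighv5-16 and Ighv1-12, which edgeR called with 6 separate samples, had 66, 52 and 32 against 15, 17 and 16 counts, and 14, 18 and 18 against 2, 6 and 4 counts. Ighv1-12 also reached 20 counts only with its WT counts.

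**Figure D4:**
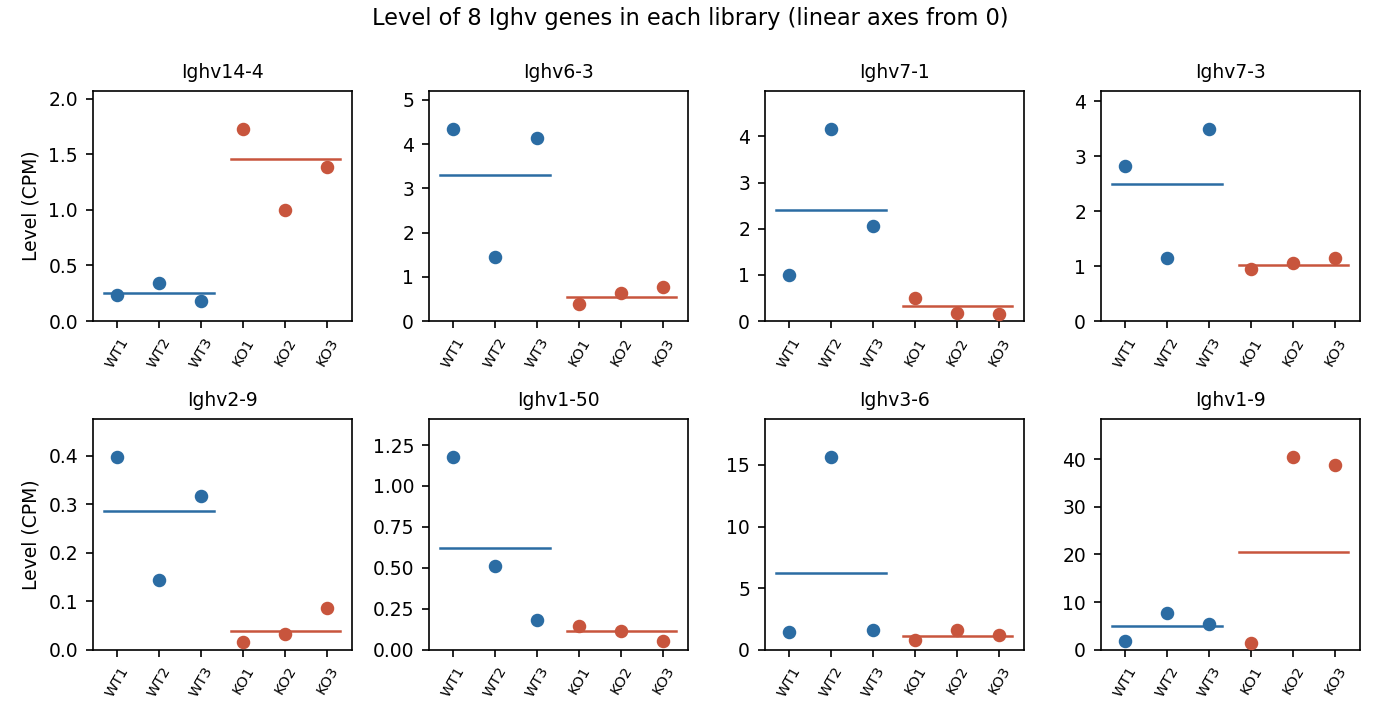
Level (CPM, linear axes that start at 0 and differ between panels) of 8 members in each library, WT in blue and KO in red, with horizontal lines at the mean of 3 WT and of 2 KO samples (KO2 and KO3 as 1). Ighv14-4 is higher in every KO library, Ighv6-3, Ighv7-1, Ighv7-3, Ighv2-9 and Ighv1-50 are lower in every KO library, and Ighv3-6 and Ighv1-9 are set by WT2 and by KO2 and KO3.

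By family, the summed levels repeated this division. Family 1, the largest with 37 members, was at 14.1, 21.9 and 22.3 CPM in WT and 16.0, 54.3 and 51.1 CPM in KO, the last pair carried by Ighv1-9. In the fit without a filter on low counts, in which a member can have passed the limit of 20 counts through the genotype where it is high, 28 of its members were lower and 9 higher in KO, and none of the 30 that passed the filter was called. Family 6 (Ighv6-3 and Ighv6-6) was at 5.41, 2.12 and 5.59 CPM in WT and 0.951, 1.13 and 1.22 CPM in KO. Family 7 (Ighv7-1 and Ighv7-3) was at 3.81, 5.31 and 5.54 CPM in WT and 1.46, 1.23 and 1.30 CPM in KO, and all 4 genes of these families, described after their values were seen, lay below WT in every KO library, as 20.8% of all tested genes did. Family 2, led by Ighv2-9-1 (15, 24 and 58 counts in WT, 3, 17 and 18 in KO), was at 1.23 to 2.60 CPM in WT and 0.634 to 1.03 CPM in KO, with all 6 members lower. Family 10 was at 0.765 to 2.88 CPM against 0.412 to 0.702 CPM, and Ighv11-2, the member of family 11, had 53, 76 and 164 counts in WT against 44, 22 and 38 in KO. Family 5, led by Ighv5-4, overlapped between genotypes at 3.82 to 7.39 and 2.66 to 5.56 CPM, although 8 of its 9 members were lower in KO. Family 9 overlapped too, at 1.44 to 3.35 and 1.21 to 2.19 CPM. Family 14 was above WT in every KO library, at 0.901, 0.841 and 1.15 CPM in WT and 3.28, 1.74 and 1.97 CPM in KO, which Ighv14-4 carried: without it the family was at 0.669, 0.499 and 0.966 CPM in WT and 1.55, 0.742 and 0.582 CPM in KO, and overlapped. Family 8, at 1.65, 1.89 and 1.76 CPM in WT and 1.54, 1.13 and 0.771 CPM in KO, lay lower in every KO library, narrowly in KO1. Ighv13-2, the member of family 13, had 17, 12 and 8 counts in WT against 2, 5 and 0 in KO (edgeR adjusted p = 0.0691). It reached 20 counts only with its WT counts. Family 3 followed Ighv3-6, with 16.1 CPM in WT2 and 1.11 to 3.33 CPM elsewhere. Ighv12-3 (25, 58 and 111 counts in WT, 48, 26 and 18 in KO) and Ighv15-2 (1 to 7 counts in every library) overlapped. The single member of family 4, Ighv4-1, was highest in KO2 and KO3 with 79 and 37 counts, against 9, 18 and 20 in WT and 5 in KO1.

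Along the locus, families 2 and 5 lie nearest the D segments, families 1 and 8 make up the far (distal) end, and the other families lie mostly between, with Ighv10-3 and Ighv15-2 past the nearest family 1 segments. The 23 members of these other families were at 16.4, 29.2 and 27.0 CPM in WT and 10.005, 11.5 and 10.5 CPM in KO, with no overlap. The distal members, 40 with Ighv1-9 included, were without Ighv1-9 at 14.01, 16.1 and 18.7 CPM in WT and 16.0, 15.0 and 13.1 CPM in KO, and overlapped. The 15 members nearest the D segments were at 5.54, 5.36 and 9.99 CPM in WT and 3.30, 6.25 and 5.89 CPM in KO, and overlapped as well. As shares of the Ighv counts without Ighv1-9, the distal members took 39.0%, 31.8% and 33.6% in WT and 54.7%, 45.7% and 44.4% in KO. No test was run on these zones, since with n = 3 and 2 the exact permutation p cannot go below 0.2. Across the 78 members the mean share had a Spearman correlation of -0.04 with the distance from the D end, a description over genes that share libraries.

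**Figure D5:**
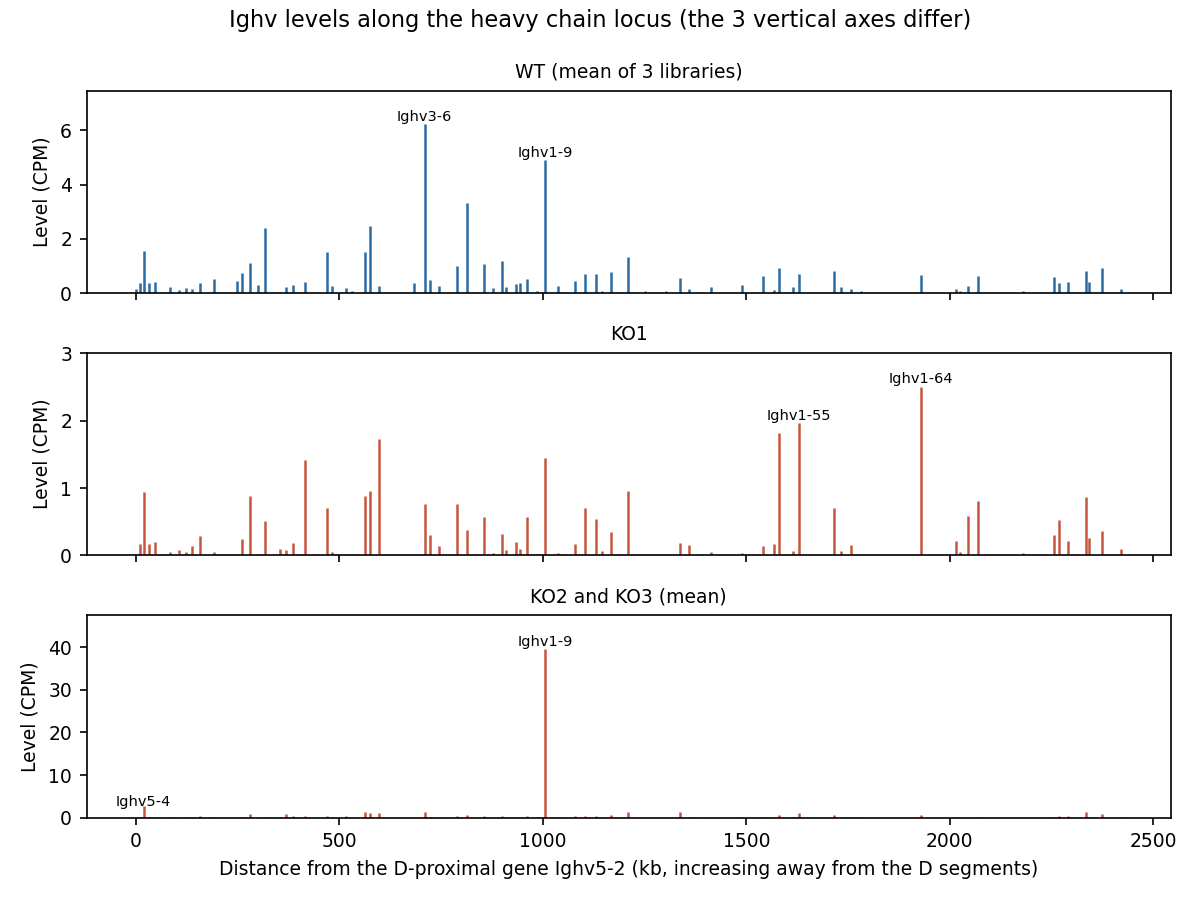
Level (CPM) of each member against its distance (kb) from Ighv5-2, the member nearest the D segments, for the mean of the WT libraries, KO1, and the mean of KO2 and KO3, with vertical axes that differ and the top 2 genes named. In KO2 and KO3 a single line, Ighv1-9, stands above 38 CPM. The tallest lines are Ighv3-6 (6.22 CPM, set by WT2) and Ighv1-9 (4.92 CPM) in WT, and Ighv1-64 (2.51 CPM) and Ighv1-55 (1.97 CPM) in KO1.

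Similarity between segments limits how finely the counts can be read. The median identity of a member to its closest Ighv segment was 92.3%, 23 of the 78 were more than 95% identical to another, and a median of 79.1% of 50-base windows were unique, down to 7.49% in Ighv1-72. Ighv1-53 (42.4% unique windows), Ighv1-50 (47.8%) and Ighv1-26 (51.0%) are the named members for which this matters most. The mean share had a Spearman correlation of 0.12 with the share of unique windows across the 78 members. Segment lengths ranged from 347 to 480 bases, and the order of the members by share was nearly the same after division by length (Spearman correlation 0.998), so length hardly entered the shares.

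The constant region that joins most of these V segments in resting B cells, Ighm, was at 349, 512 and 506 CPM in WT and 389, 564 and 571 CPM in KO (log2 fold change 0.08, edgeR adjusted p = 0.869). Per 100 Ighm counts there were 10.8, 11.4 and 12.1 Ighv counts in WT and 7.92, 13.0 and 11.9 in KO. Igha, the constant region of the mucosal antibody class, was at 39.0, 16.2 and 48.2 CPM in WT and 27.0, 43.7 and 46.9 CPM in KO, and the genotypes overlapped. Ighg2c, a class made after switching, reached 910 and 862 counts in KO2 and KO3, with 229 in KO1 and 105, 219 and 79 in WT1 to WT3 (log2 fold change 2.24, SE 0.69, edgeR adjusted p = 0.122). Jchain, which links IgM and IgA units in plasma cells, was highest in KO2 and KO3 at 73.0 and 69.8 CPM, with KO1 at 30.9 CPM and WT at 23.3, 40.7 and 41.0 CPM. KO2 and KO3 were thus the highest libraries for Ighg2c and Jchain as for Ighv1-9. They were also the highest for Ighm, Ighg3, Igkc and Iglc2, but not for Igha, Ighg1, Ighg2b or Ighe. None of these constant or joining genes was called.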

How the data were processed

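Lung RNA (Trizol, then RNeasy) of 3 WT and 3 KO mice at ZT7 was sequenced by the authors, who trimmed and filtered the reads, aligned them to GRCm38 (mm10) with STAR and counted them per gene with HTSeq in the GenPipes pipeline. The submitters' processing notes name Trimmomatic 0.36, STAR 2.5.3a, Picard 2.9.0 and HTSeq 0.6.0. The deposited values are raw counts with no normalization. Read length, strand setting and annotation release were not given in the sources used here, and reads that fit several V segments, or carry somatic mutations, may have been lost or split. By the study's methods each mouse was prepared individually, and the labels give KO2 and KO3 as separate samples. P-values measure the spread between these samples.

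KO2 and KO3 were summed to 1 sample. All genes were fitted in R 4.3.3 with edgeR 4.0.16 (filterByExpr, TMM factors, glmQLFit, glmQLFTest), with Benjamini-Hochberg adjustment over all genes tested and a threshold of 0.05. CPM values are counts divided by the scaled library size. Summed levels and effective numbers were compared with two-sided exact permutation tests (scipy 1.17.1). The fit was tested on simulated data. Annotation and sequences came from GENCODE M21, where 75 members matched by gene identifier and 3 (Ighv1-15, Ighv8-5, Ighv8-8) by symbol. Identity was measured with edlib.

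Named members are the 10 with the largest mean share, the leading gene of each library, each called member, up to 5 largest rises and falls without overlap between genotypes, the leading gene of each family with 5 or more members, and the 5 most variable shares. Ighv1-12, Ighv1-55, Ighv1-72, Ighv3-5, Ighv4-1, Ighv5-16, Ighv6-6, Ighv8-5, Ighv11-2, Ighv12-3, Ighv13-2, Ighv14-1, Ighv15-2 and Ighv14-3 were added after their values were seen. The members and gene lists were chosen with earlier results of these data known. Alternatives (6 separate samples, a replicate block, other size factors and filters, DESeq2 1.42.0, libraries left out) are in the closing section.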

Additional observations from a re-analysis of the deposited data

How the results depend on the processing

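The number of members called by edgeR, 1 in the reported fit, was 5 with 6 separate samples and 2 with 6 separate samples and the replicate block (Ighv14-4 and Ighv1-50, 3.57% of 56 members, against 6.42% of all genes in that fit). DESeq2 called 8 of 52 members, against 3889 of 17744 genes: Ighv14-4, higher, and 7 lower in KO (Ighv1-50, Ighv3-5, Ighv5-15, Ighv5-16, Ighv6-3, Ighv7-1 and Ighv8-5). Of these, Ighv1-50, Ighv3-5, Ighv5-15 and Ighv8-5 reached the limit of 20 counts only with their WT counts. Leaving out 1 library gave 0 to 1, and leaving out both KO2 and KO3 gave 0; without any WT library, or without both of these, no gene of the table was called (14, 11, 9 and 17 members had an unadjusted p under 0.05 without WT1, WT2, WT3 and KO2 with KO3, that is 22.6%, 19.0%, 15.5% and 24.3% of those tested, against 19.8%, 18.1%, 22.9% and 26.5% of all genes). Leaving out KO1 left 17 genes called, 0 of them members (12 with an unadjusted p under 0.05, 17.1% against 23.5% of all genes), and leaving out KO3 left 418, also 0 of them members (15, 23.8% against 27.2%). Other size factors and filters kept the count at 1. The replicate numbers did not pair the samples: deviations of same-numbered libraries correlated at -0.48, 0.56 and -0.65, and not every sample correlated best with its own number. The summed level (log2, -0.13) was 0.065 with 6 separate samples and ranged from -0.36 to 0.47 over single libraries left out, the highest being without KO1, which leaves 1 KO sample and no test. It was -0.73 without KO2 and KO3. The difference in effective number, -6.56, ranged from -19.8 to -2.85 over single libraries left out, was 6.65 without KO2 and KO3, and was 7.07 without Ighv1-9, both added after the data were seen. Of 17 named members 10 kept their direction in every alternative that could be fitted. With the replicate block the sign turned for Ighv1-26 (0.018) and Ighv1-53 (-0.13), and without KO2 and KO3 for Ighv1-9 (-1.77) and Ighv5-4 (-0.71). Over single libraries left out, the log2 fold change ranged from -0.28 to 0.26 for Ighv1-26 (above 0 without WT3 or KO1), from -0.73 (without KO1) to 0.44 for Ighv1-53, from -0.065 (without KO1) to 1.38 for Ighv1-64, from -0.12 (without KO1) to 1.75 for Ighv14-2, from -0.14 (without WT2) to 1.35 for Ighv5-4 and from -0.73 to 0.057 (without WT3) for Ighv9-3. Ighv3-6 ranged from -2.98 (without WT1) to -0.50 (without WT2). The cause of these changes was not tested.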

Other observations

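Among 105 kappa light chain V genes, Igkv3-4 had 3514 and 3163 counts in KO2 and KO3, 49.1% and 48.3% of their kappa V counts, against 36, 142 and 30 counts in WT and 23 in KO1. The effective number of kappa V genes was 3.98 and 4.09 in KO2 and KO3 and 15.6 to 25.1 in the other 4 libraries. In WT2, the library led by Ighv3-6, Igkv12-41 had 1204 counts and Igkv3-2 had 1055, against 28 to 42 and 25 to 116 in the others. The 3 lambda V genes gave another picture: Iglv1 held 85.0% of their counts in KO1, 70.0% and 69.9% in KO2 and KO3 and 54.2% to 66.7% in WT. Of the 4 heavy chain J segments, Ighj1 held 52.6% and 58.3% of the J counts in KO2 and KO3, 44.6% in KO1 and 39.4% in WT2, whereas Ighj4 led in WT1 and WT3 with 28.4% and 27.7%. These J shares rest on 112 to 249 counts a library. Which heavy and light chains were made by the same cells cannot be told from gene counts. No test was run on these values, which were looked at after the Ighv values were seen.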
